A study of Mus musculus with 40 samples.

Results

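*Chrdl1*, *Sparcl1*, *Sparc*, *Thbs4*, *Gpc4*, *Gpc5*, *Gpc6*, *Megf10* and *Mertk* encode proteins with which astrocytes act on synapses, either from outside the cell or by engulfing them. These 9 genes were taken by their symbols from a table of 24060 rows, 1 per gene symbol with few exceptions, counted in 40 mouse striatal libraries. The rule for taking them used symbols alone, although the genes were chosen with earlier results of these data known. All 9 passed the filter on low counts in every main fit, and a stricter filter used as an alternative kept fewer.

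The libraries form 10 groups of 4. RNA bound to ribosomes of one cell type was isolated with RiboTag, in which an adeno-associated virus (AAV) injected into the striatum expresses a tagged ribosomal protein, RPL22, and the ribosomes that carry the haemagglutinin tag are immunoprecipitated (IP) from the lysate. The input is RNA from a share of that lysate, to which every cell type of the tissue contributes. The question was how RNA of astrocytes and neurons differs, and how it changes when SAPAP3, the postsynaptic scaffold protein encoded by *Dlgap3*, is missing.

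The astrocyte cohort was adult wild-type C57/BL6NTac mice that gave an input and an astrocyte IP library each, from a virus driven by the GfaABC1D promoter. Its labels do not name the virus, and it was taken as the astrocyte RiboTag because the study's table of astrocyte IP counts holds the same values for all 1104 genes compared. The neuron cohort was adult C57/BL6NTac mice with an input and a neuron IP from a virus driven by the hSYN1 promoter, and its labels give input and IP different animal numbers. The SAPAP3 cohort was C57/BL6J wild-type (WT) and C57/BL6J-Dlgap3 KO mice, injected at an older age than the other cohorts, with an input and an IP library each. Neither the labels nor the methods name the cell type of its RiboTag, so its IP is given without one. The last groups were bulk striatal RNA of WT and Sapap3KO mice, all labelled C57/BL6NTac, and 1 animal number stands on both a WT and a KO bulk library. RiboTag from a virus reports on the infected cells in which the promoter is active, and RNA that adheres to the beads from other cells can remain in the IP.

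As background, astrocytes release matrix proteins that set how many synapses form and how mature they become. Thrombospondins act through the calcium channel subunit alpha2delta-1, hevin (*Sparcl1*) binds adhesion proteins at the cleft, SPARC counters hevin, and glypicans and chordin-like 1 bring AMPA receptors to synapses. Astrocytes also remove synapses through the phagocytic receptors MEGF10 and MERTK, and MERTK is known from microglia and macrophages as well.

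By RefSeq coordinates on GRCm38.p6, the build mm10 stands for, *Chrdl1* lies on the minus strand at chrX:143285674-143394263 and *Gpc4* on the minus strand at chrX:52051007-52164923. *Sparcl1* is on the minus strand at chr5:104079108-104114088, where 712 bases overlap the plus-strand gene *LOC330143*, so reads there cannot be assigned without a stated strand setting. *Sparc* (chr11:55394159-55420080) and *Thbs4* (chr13:92751586-92794818) are on the minus strand too. *Gpc5* (chr14:115092201-116525192) and *Gpc6* (chr14:116924920-117979529) follow each other on the plus strand, and *Mertk* is on the plus strand at chr2:128698915-128803162.

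RefSeq promoter sequence of GRCm38.p6 matched 5 of the 9 genes (*Sparc*, *Thbs4*, *Gpc4*, *Gpc5* and *Mertk*). Shown are the 250 bases before the start of 1 secreted matrix protein, 1 glypican and 1 phagocytic receptor, 1 for each role in the order of the results, written 5′ to 3′ on the gene's strand. Capitals mark matches to the NFI site TTGGC or the SOX core ACAAT on either strand, letters bound by factor families active in astrocytes.
*Thbs4*, chr13:92794819-92795068, minus strand: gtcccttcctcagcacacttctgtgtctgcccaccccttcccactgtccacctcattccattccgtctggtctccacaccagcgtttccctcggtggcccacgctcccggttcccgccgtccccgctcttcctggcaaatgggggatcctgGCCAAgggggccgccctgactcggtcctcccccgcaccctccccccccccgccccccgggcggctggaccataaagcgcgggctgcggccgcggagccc
*Gpc4*, chrX:52164924-52165173, minus strand: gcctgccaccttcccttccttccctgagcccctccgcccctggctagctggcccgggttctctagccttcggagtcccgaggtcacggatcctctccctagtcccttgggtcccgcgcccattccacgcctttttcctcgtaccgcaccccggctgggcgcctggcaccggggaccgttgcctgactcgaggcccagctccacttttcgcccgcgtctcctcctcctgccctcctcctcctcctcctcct
*Mertk*, chr2:128698665-128698914, plus strand: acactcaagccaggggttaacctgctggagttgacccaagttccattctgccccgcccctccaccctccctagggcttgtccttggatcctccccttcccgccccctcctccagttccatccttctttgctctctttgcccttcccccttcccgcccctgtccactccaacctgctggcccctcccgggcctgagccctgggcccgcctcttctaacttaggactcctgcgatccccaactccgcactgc
The *Thbs4* window held 1 NFI site, and the *Gpc4*, *Mertk*, *Sparc* and *Gpc5* windows held none. No window of the 5 genes held the SOX core, and none held the AP-1 motif TGANTCA, searched on both strands as well. Of 32851 promoter windows of this length, 41.5% held the NFI site, 27.7% the SOX core and 6.75% the AP-1 motif. The *Thbs4* and *Gpc4* windows were 70.8% and 68.4% G or C, with 19 and 18 CpG, against a median of 52.4% and 6 CpG over all windows. The *Mertk* window was 63.6% G or C, with 7 CpG.

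Library totals ran from 23438112 to 84109800 counts, lowest in the inputs of the astrocyte and SAPAP3 cohorts and highest in the neuron IP. Levels are given as CPM (counts scaled to the library total), or as CPM per kilobase of exon (FPKM) where genes are set against each other. In the astrocyte IP all 10 astrocyte markers were called higher than in the input, their summed CPM rising from 2963 to 3161 in the inputs to 27302 to 29897, and all 10 microglia markers were called lower. The 10 neuron markers summed to 6750 to 7049 CPM in the inputs and still to 4158 to 4470 CPM in the IP. Of them *Adora2a*, *Drd1a* and *Tac1* were called lower. The 10 oligodendrocyte markers summed to 5749 to 6677 CPM in the inputs and 3268 to 5582 CPM in the IP, where *Mobp* alone was called lower. Of the 10 fibroblast and ependymal markers, 6 were called higher there as well, namely those of ependymal cells such as *Foxj1* (log2 fold change 2.14) and *Tekt1* (2.49), and 3 lower, and the list summed to 50.5 to 65.4 CPM in the inputs and 97.6 to 163 CPM in the IP. The IP of the SAPAP3 cohort likewise had 10 of 10 astrocyte markers and the same 6 of 10 fibroblast and ependymal markers called higher in both genotypes, together with 4 of 10 oligodendrocyte markers. In KO IP 5 of 10 markers of oligodendrocyte precursors (*Cspg4*, *Olig1*, *Olig2*, *Pdgfra* and *Sox10*) were also called higher, and in WT IP these stood at 0.89 to 0.99, short of the fold limit of 1. The part of neuron, ependymal and oligodendrocyte lineage RNA in the IP values below was not tested. In the neuron IP 3 of 10 neuron markers were called higher, 10 of 10 oligodendrocyte and 8 of 10 precursor markers were called lower, and the 10 astrocyte markers still summed to 2792 to 3128 CPM, against 5252 to 5738 in its input, with none at 0. The part of astrocyte RNA in the neuron IP values below was not tested.

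All 9 genes were higher in the astrocyte IP than in its input, and every IP library lay above every input library for each of them. A gene was called when the edgeR quasi-likelihood test gave a Benjamini-Hochberg adjusted p under 0.05 and the log2 fold change was above 1 or below -1. All 9 were called higher, where 13.4% of the 15476 genes tested were called higher and 13.5% lower (26.9% in all). Their median log2 fold change was 2.54, against -0.02 over all genes tested. *Chrdl1*, *Gpc4* and *Thbs4* had the largest fold changes and ranked 6, 10 and 12 of all genes tested.

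**Figure D1:**
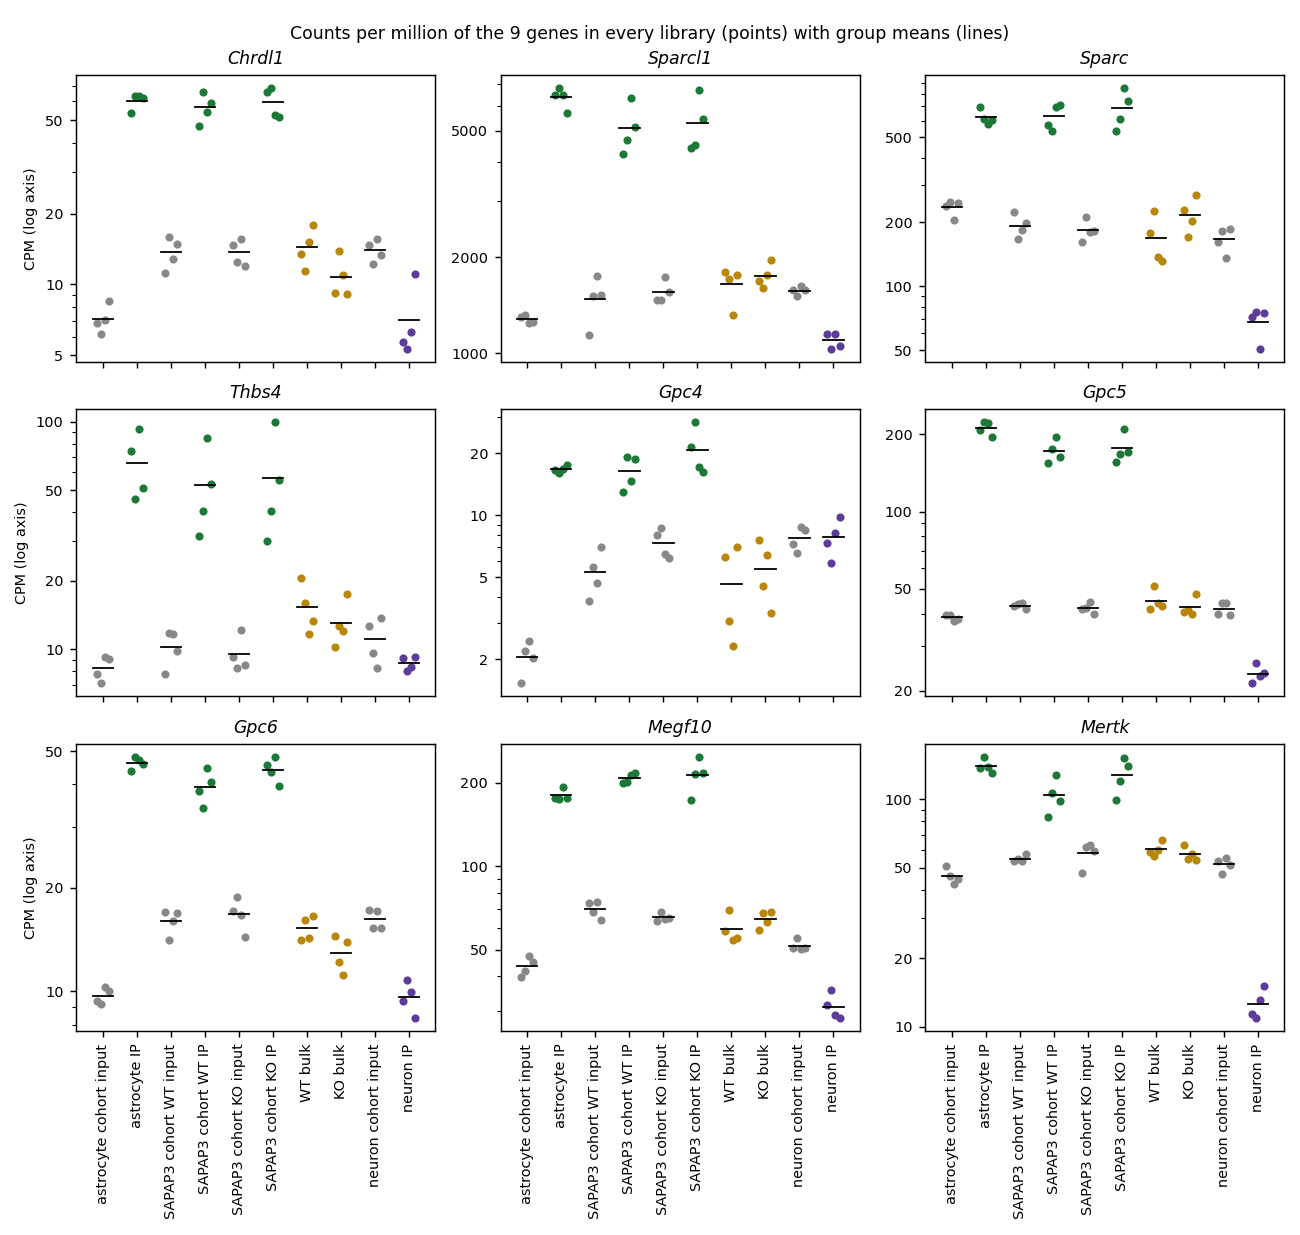
CPM of the 9 genes (log axis) in each of the 40 libraries, by group, with points for libraries and lines for the mean of 4. The IP libraries of the astrocyte and SAPAP3 cohorts lie above every input of their own group for all 9 genes, and the neuron IP libraries lie below every input for all but *Thbs4* and *Gpc4*.

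Among the secreted matrix proteins, *Thbs4*, a thrombospondin, was at 7.80, 7.08, 9.26 and 9.11 CPM in the inputs and at 74.8, 45.7, 92.8 and 51.4 CPM in the astrocyte IP. The IP libraries of *Thbs4* spread over a 2.03-fold range and all lay above the inputs. The fitted log2 fold change was 3.21 ± 0.22 (SE, n = 4 per group, adjusted p = 1.13e-07 in edgeR). *Sparcl1*, the most abundant of the 9, was at 1304, 1321, 1244 and 1251 CPM in the inputs and at 6497, 6833, 6464 and 5695 CPM in the IP. Its log2 fold change was 2.54 ± 0.06 (adjusted p = 1.74e-11), which is 5.81-fold. *Sparc* was the least enriched of the secreted proteins, at 238, 249, 205 and 246 CPM in the inputs and at 693, 609, 579 and 605 CPM in the IP. Its log2 fold change of 1.63 ± 0.07 (adjusted p = 1.45e-09) is the smallest of the 9 genes. *Sparc* is known from endothelial cells as well, and the 10 endothelial and mural markers summed to 142 to 176 CPM in the inputs and 84.9 to 91.4 CPM in the IP, with 9 called lower and none at 0. The other marker of that list, the mural receptor *Pdgfrb*, was called higher (1.45 ± 0.05, from 28.7 to 67.4 CPM) and made up most of the IP sum.

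*Chrdl1*, the secreted BMP antagonist chordin-like 1, had the largest enrichment. It stood at 6.88, 6.13, 7.10 and 8.50 CPM in the inputs and 53.5, 63.2, 63.3 and 61.9 CPM in the IP. The log2 fold change was 3.30 ± 0.09 (adjusted p = 3.98e-11), or 9.88-fold.

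The glypicans, heparan sulfate proteoglycans held at the membrane by a lipid anchor and shed from it, were all enriched. *Gpc4* was at 1.53, 2.18, 2.47 and 2.02 CPM in the inputs, from 38 to 74 counts, and at 16.5, 16.1, 16.8 and 17.5 CPM in the IP. Its IP libraries spread by 3.68% (coefficient of variation) and its inputs by 19.2%, and its log2 fold change was 3.23 ± 0.11 (adjusted p = 2.29e-10). *Gpc5*, the glypican with the highest FPKM here, was at 39.5, 39.6, 37.4 and 38.2 CPM in the inputs and 209, 223, 222 and 196 CPM in the IP (log2 fold change 2.68 ± 0.05, adjusted p = 3.79e-12). *Gpc6* was at 9.20 to 10.3 CPM in the inputs and 43.9, 48.2, 47.0 and 45.8 CPM in the IP (2.47 ± 0.05, adjusted p = 1.08e-11).

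*Megf10*, the engulfment receptor with EGF-like repeats, was at 39.9, 41.9, 47.4 and 44.9 CPM in the inputs and 176, 174, 194 and 176 CPM in the IP. Its log2 fold change was 2.27 ± 0.06 (adjusted p = 3.03e-11). *Mertk*, the receptor tyrosine kinase that binds phosphatidylserine through the bridging ligands GAS6 and protein S, was at 50.8, 46.2, 42.4 and 44.5 CPM in the inputs and 137, 154, 139 and 130 CPM in the IP (1.83 ± 0.06, adjusted p = 3.31e-10). The 10 microglia markers summed to 807 to 999 CPM in these inputs and to 51.2 to 57.8 CPM in the IP, with *Tmem119*, *Tyrobp* and *P2ry13* under 1 CPM and none at 0.

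Per kilobase, the order in the astrocyte IP ran from *Sparcl1* at 1863 ± 141 FPKM (SD, n = 4) over *Sparc* at 231 ± 18.3 FPKM to *Mertk* at 27.6 ± 1.98, *Megf10* at 24.0 ± 1.21 and *Thbs4* at 20.7 ± 6.80 FPKM. *Mertk*, *Megf10* and *Thbs4* overlapped with their neighbours in this order, so their order is not resolved. *Gpc5* at 10.4 ± 0.638, *Chrdl1* at 8.91 ± 0.691, *Gpc4* at 2.86 ± 0.105 and *Gpc6* at 1.45 ± 0.0577 FPKM followed, with no overlap between libraries of neighbours. The exon lengths of *Gpc5* and *Gpc6* used for this are long, 20444 and 31860 bases, and an isoform with fewer exonic bases would raise their FPKM.

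The IP of the SAPAP3 cohort had all 9 genes higher than the input in both genotypes, and in each of the 8 mice the IP over its own input was above 1 for every gene. All 9 were called higher in WT, where 10.9% of 15587 genes were called higher (23% in either direction), and all 9 in KO, where 12.3% of 15583 genes were. The median log2 fold change of the 9 was 1.88 in WT and 1.97 in KO, against -0.03 and 0.00 over all genes tested. *Thbs4* was the most enriched, at 2.53 ± 0.30 in WT and 2.77 ± 0.34 in KO. In WT its own-input ratios per mouse ran from 3.41 to 7.32 and in KO from 3.24 to 8.24. *Thbs4* levels in these IP libraries were 31.6, 40.5, 85.2 and 53.4 CPM in WT and 30.0, 40.6, 99.8 and 55.7 CPM in KO, a wider spread than that of 99.04% and 99.8% of genes above 5 CPM.

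*Chrdl1* was at 11.2, 16.0, 12.9 and 14.9 CPM in WT inputs and 47.3, 65.7, 54.3 and 58.9 CPM in WT IP. In KO mice it was at 14.8, 12.5, 15.5 and 11.98 CPM in inputs and 65.9, 68.7, 52.4 and 51.6 CPM in IP. Its IP levels lay near those of the astrocyte cohort while its inputs were higher. *Megf10* was at 63.9 to 74.2 CPM in WT inputs and 200 to 217 CPM in WT IP, and at 63.3 to 68.5 CPM in KO inputs and 173 to 249 CPM in KO IP.

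*Mertk* was the least enriched gene in this cohort. Its WT inputs were at 53.6, 54.5, 53.8 and 57.5 CPM and its WT IP at 83.8, 106, 127 and 98.2 CPM, a log2 fold change of 1.09 ± 0.12 (adjusted p = 2.96e-05 in edgeR). The groups did not overlap, but the fold change was close to the limit of 1 and was 0.97 without WT IP replicate 3, which ends the call. In KO mice *Mertk* rose by 1.35 ± 0.13. For the remaining genes the log2 fold changes in WT ran from 1.47 (*Gpc6*) to 2.21 (*Chrdl1*), and in KO from 1.60 (*Gpc6*) to 2.32 (*Chrdl1*).

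**Figure D2:**
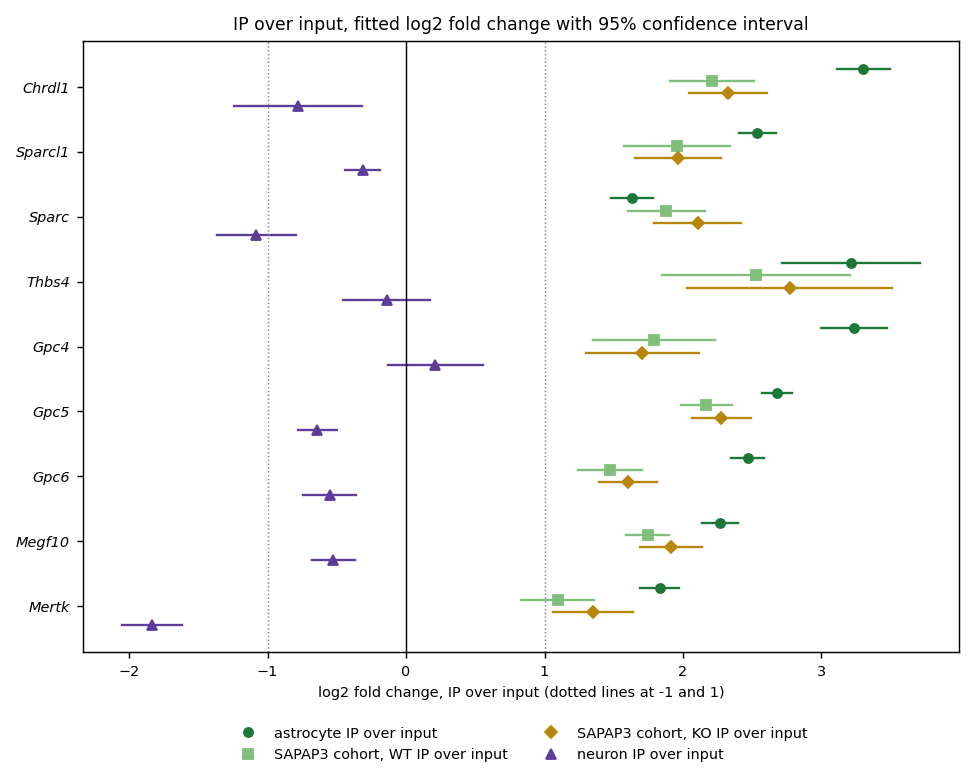
Fitted log2 fold change of IP over input for the 9 genes with 95% confidence intervals, in the astrocyte cohort, the WT and KO mice of the SAPAP3 cohort and the neuron cohort. The first 3 lie above 1 for all 9 genes, from 1.09 to 3.30, while the neuron IP lies from -1.83 (*Mertk*) to 0.21 (*Gpc4*).

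In the neuron IP no gene of the 9 was called higher (0.42% of 16198 genes tested were) and *Mertk* and *Sparc* were called lower, where 15.8% of genes were. *Mertk* was at 53.5, 47.1, 55.5 and 51.5 CPM in the inputs and 11.4, 10.9, 13.1 and 15.1 CPM in the IP, with no overlap. The log2 fold change was -1.83 ± 0.10 (adjusted p = 2.20e-07 in edgeR). *Sparc* was at 161, 181, 136 and 186 CPM in the inputs and 71.1, 75.8, 50.6 and 74.5 CPM in the IP, also with no overlap, and its log2 fold change was -1.08 ± 0.13 (adjusted p = 3.30e-05). Without neuron IP replicate 3 it was -0.96, which is not called. The microglia markers summed to 674 to 1026 CPM in these inputs and to 40.5 to 61.8 CPM in the IP, with 10 of 10 called lower, and the endothelial and mural markers to 142 to 159 and 31.0 to 36.1 CPM, with 8 of 10 called lower. Neither list had a marker at 0 in all libraries, and their part in the *Mertk* and *Sparc* values was not tested.

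A further 5 genes were lower at an adjusted p under 0.05 without passing the fold limit. They were *Chrdl1* (-0.78 ± 0.21, adjusted p = 0.00638), *Gpc5* (-0.64 ± 0.06), *Gpc6* (-0.55 ± 0.09), *Megf10* (-0.53 ± 0.07) and *Sparcl1* (-0.31 ± 0.06). *Chrdl1* stood at 14.7, 12.3, 15.6 and 13.4 CPM in the inputs and at 5.71, 5.32, 6.25 and 11.1 CPM in the IP, so that 1 IP library lay near the inputs and the other three lay well below. Without that library, replicate 4, its log2 fold change was -1.06 and it was called. *Sparcl1* fell from 1578, 1517, 1623 and 1579 CPM to 1153, 1032, 1152 and 1056 CPM.

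*Thbs4* and *Gpc4* did not pass the test in the neuron IP. *Thbs4* was at 12.6, 9.63, 8.28 and 13.7 CPM in the inputs and 9.14, 8.02, 8.37 and 9.22 CPM in the IP (log2 fold change -0.14, 95% confidence interval -0.45 to 0.17, adjusted p = 0.386). *Gpc4* was at 7.29, 6.57, 8.77 and 8.48 CPM in the inputs and at 7.32, 5.84, 8.18 and 9.85 CPM in the IP (0.21, interval -0.13 to 0.55, adjusted p = 0.239). The groups overlapped for both genes. The CPM of input and IP were alike for *Gpc4* (means 7.78 and 7.80), and its fitted value above 0 comes with the TMM scaling of the libraries. Per kilobase *Gpc4* was at 1.33 ± 0.286 FPKM in the neuron IP and at 2.86 ± 0.105 FPKM in the astrocyte IP.

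The order per kilobase in the neuron IP was led by *Sparcl1* at 321 ± 18.6 FPKM (SD, n = 4) and *Sparc* at 25.3 ± 4.37 FPKM, as in the astrocyte IP. *Megf10* followed at 4.14 ± 0.437 FPKM, then *Thbs4* at 2.71 ± 0.183 and *Mertk* at 2.48 ± 0.368 FPKM, whose libraries overlapped. *Gpc4*, *Gpc5* at 1.14 ± 0.0850 and *Chrdl1* at 1.05 ± 0.396 FPKM overlapped too, and *Gpc6* was lowest at 0.302 ± 0.0316 FPKM. In each of the 4 pairs of IP and input with the same number, *Mertk* stood at 0.214 to 0.292 of its input and *Sparc* at 0.372 to 0.443. *Gpc4* stood at 0.889 to 1.16, above 1 in 2 pairs, and *Thbs4* at 0.672 to 1.01, above 1 in 1 pair.

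Scaling to 78 ribosomal protein genes moved the median log2 fold change of all genes to 0.64 in the astrocyte IP, to -0.41 in the neuron IP and to 0.19 and 0.17 in the WT and KO mice of the SAPAP3 cohort. Under it all 9 genes were still called higher in the astrocyte IP and in both genotypes of the SAPAP3 cohort, *Chrdl1* (-1.21) and *Gpc5* (-1.05) joined *Mertk* and *Sparc* among the genes called lower in the neuron IP, and *Gpc4* turned to -0.21, above the median of all genes.

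The difference between the enrichments was tested with an interaction term over the 16 libraries of both cohorts. The IP over input ratio was lower in the neuron than in the astrocyte cohort for all 9 genes, and all 9 were called (19.1% of 16371 genes were called in this direction, 8.27% in the other and 27.4% in all). The adjusted p ran up to 1.27e-08 (*Thbs4*). The difference on the log2 scale ran from -4.09 ± 0.25 for *Chrdl1* and -3.67 ± 0.12 for *Mertk* to -2.80 ± 0.10 for *Megf10* and -2.71 ± 0.16 for *Sparc*. These differences include any difference between the inputs of the cohorts. *Gpc4* was at means of 0.350 FPKM in the astrocyte and 1.33 FPKM in the neuron inputs, and at 2.86 and 1.33 FPKM in the IP. *Chrdl1* was at 1.05 and 2.07 FPKM in these inputs and at 8.91 and 1.05 FPKM in the IP. The promoter of the virus and the cohort differ together here and cannot be told apart.

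The inputs themselves differed between cohorts for some of the genes. *Gpc4* was at 1.53 to 2.47 CPM in the astrocyte cohort, 3.84 to 7.05 in WT and 6.23 to 8.65 in KO mice of the SAPAP3 cohort, and 6.57 to 8.77 CPM in the neuron cohort. *Chrdl1* was at 6.13 to 8.50 CPM in the astrocyte cohort and 11.2 to 16.0, 11.98 to 15.5 and 12.3 to 15.6 CPM in these other inputs, and *Gpc6* at 9.20 to 10.3 CPM against 14.1 to 18.8 CPM. *Megf10* was at 39.9 to 47.4 CPM in the astrocyte cohort, 63.3 to 74.2 CPM in the SAPAP3 cohort and 50.3 to 54.8 CPM in the neuron cohort. *Gpc5* stayed between 37.4 and 44.3 CPM in every input group. In whole tissue, fewer cells of a type and less RNA per cell cannot be told apart. The neuron cohort also differs from the astrocyte cohort in virus. The SAPAP3 cohort differs from both in strain and age at injection, and its virus is not named. *Xist*, which is transcribed from an inactive X, was above 10 CPM in all 4 inputs of the neuron cohort and in 0 of the astrocyte cohort, and *Chrdl1* and *Gpc4* are X-linked. The part of sex in their difference between cohorts was not tested.

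Genes of cortical projection neurons differed between these inputs too. A list of 7 of them (*Slc17a7*, *Tbr1*, *Neurod6*, *Neurod2*, *Rasgrf2*, *Cux2* and *Rorb*), chosen after values were seen, summed to 176, 186, 216 and 186 CPM in the astrocyte cohort's inputs. It summed to 223, 977, 820.3 and 869 CPM in the WT inputs of the SAPAP3 cohort, 949.7 to 1059 CPM in its KO inputs and 926 to 1267 CPM in the inputs of the neuron cohort. The WT input with 223 CPM, replicate 1, had the lowest *Gpc4* (3.84 CPM) and *Chrdl1* (11.2 CPM) of its group but the highest *Gpc6* (16.98 CPM), and *Megf10* was higher in the SAPAP3 than in the neuron cohort although the sums of their libraries overlapped. In WT bulk RNA the sum was 1184, 403, 307 and 1091 CPM and *Gpc4* was 6.26, 3.07, 2.32 and 6.99 CPM, so the same libraries were low in both. *Chrdl1* did not follow the sum there, with 15.1 CPM in the library with the lowest sum and 13.4 CPM in that with the highest. In KO bulk RNA the sum was 966, 811, 1037 and 609 CPM and *Gpc4* 7.59, 4.56, 6.42 and 3.37 CPM, and again the library with the lowest sum had the lowest *Gpc4*. Levels were set against the list in inputs and bulk RNA only, since in the astrocyte IP its members *Rorb* (3.21 ± 0.07, from 29.0 to 229.96 CPM) and *Tbr1* were themselves called higher. As a covariate between genotypes, the sum was used in the IP too, with the same limit. The part of cortical tissue in the differences of *Gpc4* and *Chrdl1* between cohorts was not tested.

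**Figure D3:**
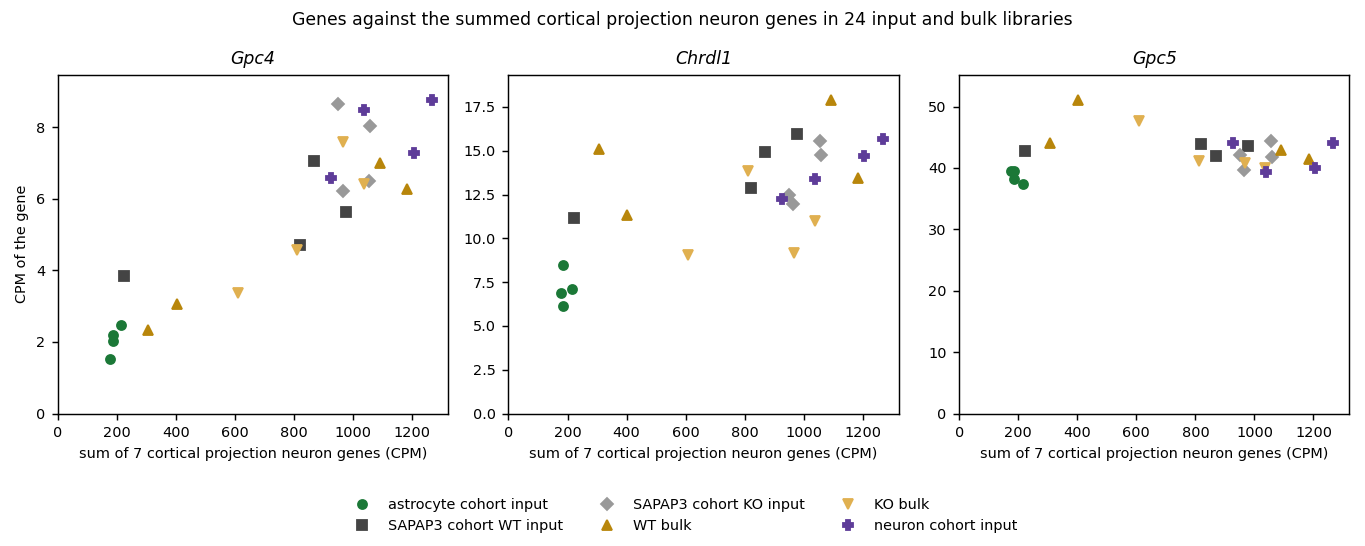
CPM of *Gpc4*, *Chrdl1* and *Gpc5* against the summed CPM of 7 cortical projection neuron genes in the 24 input and bulk libraries, by group. *Gpc4* ranges from 1.53 CPM where the sum is 176 CPM to 8.77 CPM where it is 1267 CPM, whereas *Gpc5* lies between 37.4 and 51.1 CPM throughout.

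The comparison of SAPAP3 KO with WT mice asked whether loss of SAPAP3 changes these genes. *Dlgap3* itself was at 514, 395, 376 and 400 CPM in WT inputs and 200, 188, 166 and 166 CPM in KO inputs, at 212, 154, 157 and 179 CPM in WT IP and 87.2, 68.3, 49.8 and 56.7 CPM in KO IP. In bulk RNA it was at 376, 385, 338 and 232 CPM in WT and 161, 153, 154 and 144 CPM in KO. Every KO library lay below every WT library of its kind. The log2 fold change was -1.19 in inputs (adjusted p = 0.00698 in edgeR), -1.40 in IP (adjusted p = 0.0283) and -1.14 in bulk RNA, where it was not called (adjusted p = 0.318). Reads on *Dlgap3* remained in the KO libraries.

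None of the 9 genes was called in inputs, IP or bulk RNA at an adjusted p under 0.05 without a fold limit, in edgeR, limma-voom or DESeq2. In the inputs 0.00641% of genes were called, in the IP 0.0263% (0.00658% higher and 0.0197% lower) and in bulk RNA 0%, so few genes of any kind passed. At an unadjusted p under 0.05, 1 of the 9 passed in the inputs (*Gpc4*), 0 in the IP and 2 in bulk RNA (*Chrdl1* and *Gpc6*). The median log2 fold change of the 9 was 0.02, 0.12 and -0.10, against 0.00, 0.01 and 0.00 over all genes tested.

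*Gpc4* had the largest difference, at 3.84, 5.64, 4.71 and 7.05 CPM in WT inputs and 8.03, 8.65, 6.48 and 6.23 CPM in KO inputs. The groups overlapped. The log2 fold change was 0.49, with a 95% confidence interval of 0.07 to 0.92 (adjusted p = 0.735 in edgeR). With the summed cortical projection neuron genes as a covariate, an alternative chosen after seeing the data, it was 0.31 in the inputs, 0.075 in the IP and -0.03 in bulk RNA. In the IP *Gpc4* was at 13.01, 19.2, 14.6 and 18.8 CPM in WT and 21.5, 28.3, 17.2 and 16.2 CPM in KO (0.36, interval -0.07 to 0.79, adjusted p = 0.999). In these IP libraries *Rorb*, at means of 207 CPM in WT and 211 CPM in KO, was called higher than in the inputs (1.19 and 1.22) while *Neurod2* (-2.06 and -1.80) and *Neurod6* (-1.83 and -1.76) were called lower, so the sum does not stand for cortical neurons in the IP. In bulk RNA the fitted value for *Gpc4* was 0.21, with an interval of -0.66 to 1.07.

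*Mertk* in the IP was at 83.8, 106, 127 and 98.2 CPM in WT and 99.5, 120, 152 and 140 CPM in KO (0.32, interval -0.02 to 0.66, adjusted p = 0.999). *Sparc* was at 177, 224, 138 and 131 CPM in WT bulk and 228, 170, 202 and 267 CPM in KO bulk (0.35, interval -0.06 to 0.76). *Chrdl1* in bulk RNA was at 13.4, 11.4, 15.1 and 17.9 CPM in WT and 9.18, 13.9, 10.995 and 9.07 CPM in KO (-0.45, interval -0.85 to -0.05, adjusted p = 0.984), and its log2 fold change was 0.02 in inputs and 0.10 in IP. Groups overlapped for each of these. *Xist* was above 10 CPM in 1 WT and 1 KO mouse of the SAPAP3 cohort, in 1 WT bulk and in 0 KO bulk libraries. The part of sex in these values was not tested beyond a fit with *Xist* as a covariate.

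The remaining genes showed smaller differences. In bulk RNA *Thbs4* was at 20.7, 15.9, 11.7 and 13.4 CPM in WT and 10.2, 12.7, 11.98 and 17.5 CPM in KO (-0.26, interval -0.72 to 0.19), and *Gpc6* at 14.1, 16.1, 14.3 and 16.6 CPM in WT and 14.5, 12.2, 11.1 and 13.9 CPM in KO (-0.26, interval -0.48 to -0.05). *Sparcl1*, at 1318 to 1797 CPM in WT bulk and 1602 to 1968 CPM in KO bulk, had a value of 0.06 there. *Megf10* and *Mertk* in bulk RNA were at 0.10 and -0.10. All of these groups overlapped.

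The intervals bound what these 4 against 4 comparisons allow. For *Gpc5* they were -0.13 to 0.12 in inputs and -0.18 to 0.30 in IP, and for *Megf10* -0.20 to 0.07 and -0.17 to 0.29. Those of *Thbs4* were the widest in the IP, -0.73 to 0.97, so changes in *Thbs4* within these bounds remain compatible with the data. The change of the genotype effect between IP and input, tested as an interaction over 16 libraries, ran from -0.12 (*Gpc4*) to 0.22 (*Mertk*), and 0 of the 9 (0% of 16059 genes) were called, in DESeq2 and limma-voom too, with 0 at an unadjusted p under 0.05.

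**Figure D4:**
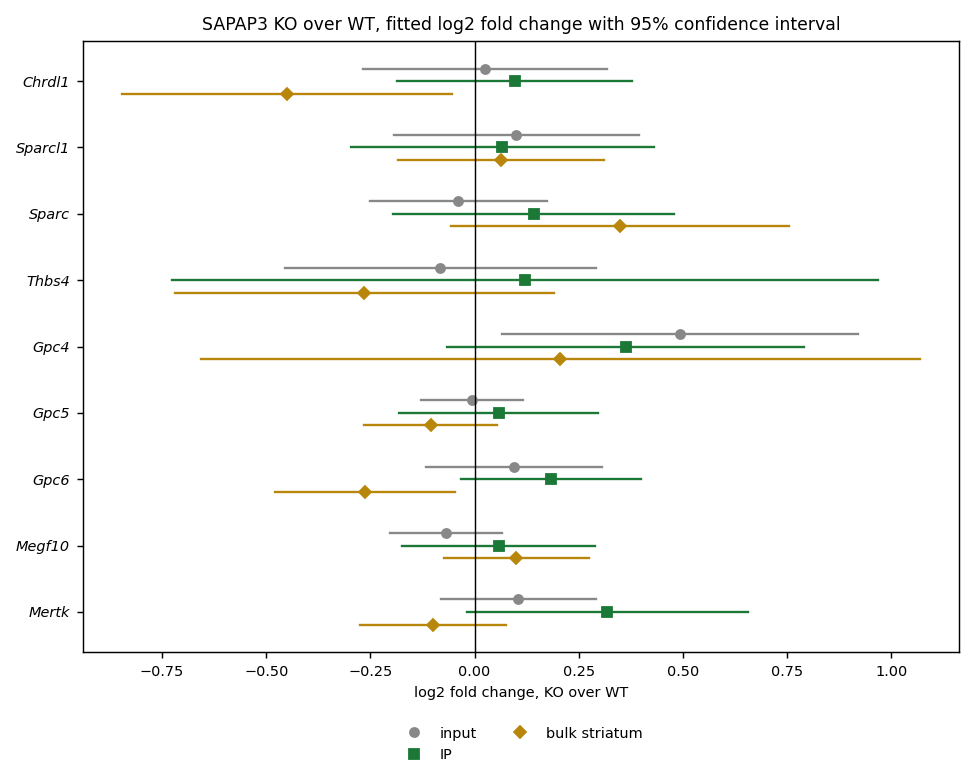
Fitted log2 fold change of SAPAP3 KO over WT for the 9 genes with 95% confidence intervals, in inputs, IP and bulk striatal RNA (4 libraries per group). The values lie between -0.45 (*Chrdl1*, bulk) and 0.49 (*Gpc4*, input), and all intervals include 0 except those of *Gpc4* in inputs and of *Chrdl1* and *Gpc6* in bulk RNA.

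Relatives of the 9 genes, the synaptic partners of their products and the phagocytosis pathway were described from 3 lists. Of 25 secreted and matrix relatives tested in the astrocyte IP, 9 were called higher and 3 lower (13.4% and 13.5% of all genes tested were), with a median log2 fold change of 0.54. The higher ones included the brain proteoglycans *Bcan* (2.40 ± 0.06, from 214 to 968 CPM) and *Ncan* (2.03 ± 0.07, from 287 to 1003 CPM), the matrix protein *Tnc* (2.61 ± 0.13), *Ndp* (2.17 ± 0.09) and the pentraxin *Ptx3* (2.95 ± 0.48). *Ptx3* rose from a mean of 0.747 CPM in the inputs to 4.91 CPM in the IP. Among the thrombospondins *Thbs2* rose by 1.77 ± 0.12 to 9.28 CPM, while *Thbs1* (-0.45 ± 0.19) and *Thbs3* (-0.97 ± 0.13) did not pass the fold limit. Among the other glypicans, *Gpc1* (-0.51 ± 0.04), *Gpc2* (0.85 ± 0.18) and *Gpc3* (0.49 ± 0.15) were not called. In the neuron IP 0 of the 26 relatives tested were called higher and 5 lower, near the 15.8% of all genes called lower, namely *Tgfb1* (-3.49), *Tnf* (-3.08), *Comp* (-1.84), *Ndp* (-1.30), a ligand of the Wnt pathway, and *Il33* (-1.10). In the neuron cohort *Comp* was at means of 0.228 CPM in the inputs and 0.0537 CPM in the IP. *Tnf* was at 0.788 and 0.0802 CPM there, and *Tgfb1* at 4.89 and 0.376 CPM. *Tnf* and *Tgfb1* were below 1 CPM in the astrocyte IP as well, where they fell by 2.95 and 2.43 on the log2 scale, and *Grem1* fell by 1.03. Mean *Grem1* was 1.52 CPM in the inputs and 0.638 CPM in the IP of the astrocyte cohort.

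Of 16 synaptic partners, 2 were called higher in the astrocyte IP and 1 lower, no more than the 13.4% and 13.5% of all genes, with a median of 0.00. *Bmpr1b* (2.41 ± 0.08) and *Bmpr1a* (1.40 ± 0.05), receptors of the BMP ligands that chordin-like proteins bind, were the higher ones, and *Bmp4* (-1.07 ± 0.21) was the lower. *Nlgn1*, a partner of hevin, was at -0.69 ± 0.03, *Cacna2d1*, the thrombospondin receptor, at -0.41 ± 0.06 and the AMPA receptor subunits *Gria1* and *Gria2* at -0.47 ± 0.04 and -0.56 ± 0.04, none past the fold limit. In the neuron IP *Bmp4* alone was called, at -2.63, and *Nlgn1* stood at 0.04. Mean *Bmp4* was 2.03 CPM in the inputs and 0.826 CPM in the IP of the astrocyte cohort, and 3.79 and 0.529 CPM in the neuron cohort.

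Of 22 phagocytosis genes, 9 were called higher in the astrocyte IP and 6 lower (13.4% and 13.5% of all genes), with a median of 0.75. Those higher held the MERTK ligands *Gas6* (1.42 ± 0.03, 128 to 294 CPM) and *Pros1* (1.61 ± 0.09), its relative *Axl* (2.08 ± 0.07), the bridging protein *Mfge8* (2.14 ± 0.11), the transporter *Abca1* (2.33 ± 0.05) and *Dock1* (2.01 ± 0.04), which acts with *Elmo1* on *Rac1*. The complement genes *C1qa*, *C1qb* and *C1qc*, known from microglia, fell by 5.72, 5.91 and 5.93 on the log2 scale, *Trem2* by 5.06 and *Cd36* by 3.07. *C3*, another complement gene, was called higher (1.67 ± 0.28). The TAM receptors differed in direction, with *Mertk* and *Axl* called higher and *Tyro3* at -0.80 ± 0.04, short of the fold limit. In the neuron IP 0 were called higher and 9 lower (0.42% and 15.8% of all genes), led by *C1qb* (-4.70), *C1qc* (-4.63), *C1qa* (-4.36), *Trem2* (-3.29) and *Pear1* (-2.44), with *Itgb5* at -2.13, *Axl* at -1.28 and *Dock1* at -1.16, and *Tyro3* was at 0.33. Mean *Pear1* was 2.55 CPM in the inputs and 0.407 CPM in the IP of the neuron cohort. In the interaction test *Axl* (-3.37) and *Mertk* (-3.67) were called lower and *Tyro3* (1.13) higher in the neuron cohort.

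**Figure D5:**
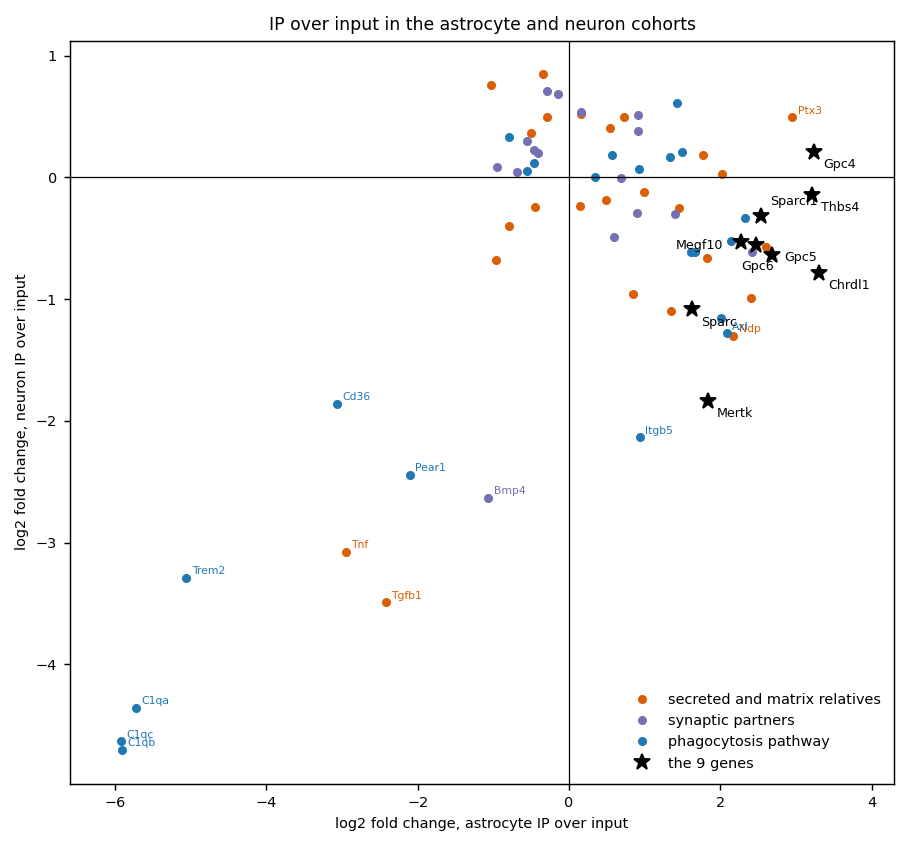
Log2 fold change of IP over input in the neuron cohort against that in the astrocyte cohort, for the 9 genes (stars) and the genes of 3 lists. The 9 genes lie at 1.63 to 3.30 on the astrocyte axis and at -1.83 to 0.21 on the neuron axis, and the C1q genes lie at -5.72 or lower on the astrocyte axis and at -4.36 or lower on the neuron axis.

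In the SAPAP3 cohort 10.9% of all genes were called higher and 12.1% lower in WT IP, and 12.3% and 11.5% in KO IP. Of the 22 phagocytosis genes, 7 were called higher and 6 lower in WT, and 10 higher and 6 lower in KO. Of 25 secreted and matrix relatives tested, 9 were called higher and 3 lower in WT and 10 higher and 3 lower in KO, the lower ones near the share of all genes. Of the 16 synaptic partners 3 were called higher in both genotypes and 1 lower in each, not the same gene. The lower one was *Bmp4* in WT (-1.31, against -0.88 in KO) and *Nptxr* in KO (-1.32, against -0.94 in WT). In KO over WT no gene of the 3 lists was called in inputs, IP or bulk RNA by edgeR. The largest values in the IP were those of *C1qb* (0.79 ± 0.48), *C1qc* (0.74 ± 0.55) and *C1qa* (0.64 ± 0.48), each with an adjusted p of 0.999, with group means of 4.16 to 6.82 CPM in WT and 7.15 to 10.6 CPM in KO. In the inputs of the same mice *C1qb*, *C1qc* and *C1qa* stood at -0.29, -0.33 and -0.28, and in bulk RNA at 0.01, -0.02 and 0.01. The C1q genes were chosen after their values were seen. The microglia markers summed to 65.7 to 95.2 CPM in WT IP and 70.2 to 146 CPM in KO IP, with none at 0, and their part in the C1q values was not tested.

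Likeness to other genes was measured as Pearson's r between log2 CPM over the 10 group means, among 11750 genes above 5 CPM, with no test because the groups share mice and cohorts. The closest genes to *Chrdl1* and to *Gpc6* were the same pair, *Frmpd1* (r = 0.994 for both) and *Sox6* (0.993 and 0.992). Those of *Gpc5* were *Nwd1* and *Fads2* (both 0.999), of *Sparcl1* *Agpat5* (0.997) and *Ezr* (0.996), of *Thbs4* *Ptpra* (0.993) and *Agpat5* (0.992) and of *Sparc* *Stxbp3a* (0.994) and *Paqr6* (0.992). *Megf10* was closest to *Efemp1* (0.997) and *Cdh20* (0.996), *Gpc4* to *Srl* (0.994) and *Dnah5* (0.984) and *Mertk* to *Rasa2* (0.988) and *Ctbp2* (0.988). Within the 9 genes, *Chrdl1* and *Gpc6* were the most alike (0.997) and *Gpc4* and *Mertk* the least (0.524).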

How the data were processed

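Per the labels and the study's methods, reads were aligned to mm10 with STAR, and HTSeq is named without a version. The authors deposited raw counts of reads per gene symbol, not normalized, 1 column per library (2 symbols listed more than once stayed in the tests row by row and were left out of the tables of levels; 0 columns were unused). The annotation and strand setting are not given in the sources used here, and labels and methods name different kits.

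From these counts, CPM were computed with library totals, and FPKM with merged exon lengths from RefSeq GRCm38.p6 (found for 23875 symbols). Tests used edgeR 4.0.16 in R 4.3.3 (filterByExpr, TMM, glmQLFit and glmQLFTest, Benjamini-Hochberg adjustment over all genes tested), each fit holding just the groups it compares. This stands in for the authors' limma-voom (3.58.1 here), which was an alternative together with DESeq2 1.42.0, other scalings, filters, covariates, a replicate block and leaving out each library. IP against input and its interaction used a limit of 1 on the log2 scale, genotype comparisons none. Correlations of deviations from the group means between the IP and input of a pair, over genes above 5 CPM, were 0.258 to 0.791. Within each set of IP and input, every pair lay above all other combinations, which ran from -0.532 to 0.320. Pairs were set by animal, and in the neuron cohort by the number in the title. The main fits of IP against input and of the interactions held no term for pairs, and the replicate block was an alternative. The scripts were tested on simulated data. Figures used matplotlib 3.10.9.

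Some listed genes are not reported here and were left out of their list. The members and lists were chosen with earlier results of these data known. The rule for named genes was the 9 genes, up to 5 genes of each list called in each direction with the largest fold change, and the 2 genes most alike; relatives and partners named beyond it were chosen after their values were seen. Within a group, replicates are separate mice per the labels, and p-values of the main fits measure the spread between libraries within groups. Outside the neuron cohort, input and IP come from the same mice per the labels but were fitted as independent libraries. In the neuron cohort the animal numbers differ, but pairs by title number correlated at 0.483 to 0.791 and other combinations at -0.486 to 0.168. Its libraries were fitted as independent as well. The p-values of IP against input and of the interactions therefore take no account of shared mice. In bulk RNA the shared animal number leaves it unclear whether all WT and KO libraries are from separate mice. Totals of 23438112 to 84109800 counts put at least 38 counts behind each CPM of the 9 genes, and intervals from library spread include counting error.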

Additional observations from a re-analysis of the deposited data

Results flagged for a closer look

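Of 90 sets of 4 libraries (9 genes in 10 groups), 5 held a library far from its group by Dixon's criterion, close to the 5% that chance gives. *Chrdl1* was low in 1 astrocyte IP library (53.5 CPM, next 61.9) and high in 1 neuron IP library (11.1 CPM, next 6.25), the one that decides its call there. *Gpc5* was high in 1 KO bulk library (47.7 CPM, next 41.2). *Megf10* was high in 1 astrocyte IP library (194 CPM, next 176) and in 1 input of the neuron cohort (54.8 CPM, next 50.8).

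The enrichment in the neuron IP differed from that in the astrocyte IP for all 9 genes in the interaction test (edgeR, log2 difference of neuron minus astrocyte). It was -4.09 for *Chrdl1*, -3.03 for *Gpc4*, -3.32 for *Gpc5*, -3.02 for *Gpc6*, -2.80 for *Megf10*, -3.67 for *Mertk*, -2.71 for *Sparc*, -2.85 for *Sparcl1* and -3.36 for *Thbs4*. Differences between the inputs of the cohorts, as for *Gpc4* and *Chrdl1*, are part of these values.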

How the results depend on the processing

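All 9 genes stayed called in the astrocyte IP, in the KO mice of the SAPAP3 cohort and in the difference between neuron and astrocyte enrichment, and none was called for genotype, under every alternative that tested them (normalization, filter on low counts, DESeq2, limma-voom, ribosomal protein scaling, leaving out each library). The FPKM filter tested 7 of the 9 genes (4 in the neuron cohort, inputs and bulk RNA), and those kept their calls. With IP and input paired by a replicate block, 9, 2, 9 and 9 genes were called in the astrocyte, neuron, WT and KO IP, and the block changed no other call. In the neuron IP, ribosomal protein scaling gave 4 called genes in place of 2, with *Chrdl1* at -1.21, *Gpc5* at -1.05 and *Gpc4* at -0.21, by the shift of all genes it is built on. Leaving out 1 library gave 1 to 3 called there (*Sparc* -1.16 to -0.96, lost without IP replicate 3; *Chrdl1* -1.06 to -0.66, gained without IP replicate 4) and 8 or 9 in WT IP (*Mertk* 0.97 to 1.18, lost without IP replicate 3).

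The genotype values that changed sign were all uncalled, and the cause was not tested. In inputs these were *Sparc* at 0.039 and *Gpc5* at 0.057 under ribosomal protein scaling, *Chrdl1* at -0.011 with *Xist* as a covariate, and *Chrdl1* at -0.12, *Sparcl1* at -0.059 and *Sparc* at 0.056 with the cortical gene sum, added after seeing the data. In IP *Chrdl1* was at -0.0038 with *Xist* and -0.11 with the cortical sum, of which *Rorb* is itself enriched in the IP. In bulk RNA *Sparcl1* was at -0.047 and *Gpc4* at -0.078 with *Xist*, and *Gpc4* at -0.032 with the cortical sum. Leaving out 1 library, inputs gave *Chrdl1* -0.068 to 0.10, *Sparcl1* -0.014 to 0.20, *Sparc* -0.12 to 0.023 and *Gpc5* -0.033 to 0.022. In IP it gave *Sparcl1* -0.074 to 0.19, *Thbs4* -0.31 to 0.45, *Gpc5* -0.044 to 0.12 and *Megf10* -0.028 to 0.15, and in bulk RNA *Sparcl1* -0.027 to 0.12 and *Gpc4* -0.011 to 0.46. For the change of the genotype effect between IP and input it gave *Sparcl1* -0.17 to 0.093, *Gpc4* -0.32 to 0.0043, *Chrdl1* -0.014 to 0.17, *Thbs4* -0.23 to 0.54 and *Gpc5* -0.034 to 0.14. Depth limits *Gpc4* most, with 38 to 74 counts in the inputs of the astrocyte cohort.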
